A study of Rattus norvegicus with 64 samples.

Results

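Proteins that bind RNA in the nucleus are encoded by several large gene families, and 71 of their genes are described here in rat lung after inhaled fracking sand dust. They comprise 18 genes of the heterogeneous nuclear ribonucleoproteins (Hnrnp symbols), 12 genes of the serine and arginine rich splicing factors (Srsf symbols, called SR genes below), 38 genes of the RNA-binding motif series (Rbm symbols followed by a digit or x) and Pspc1, Sfpq and Nono, which encode the proteins of nuclear paraspeckles. Members were chosen by symbol and by a total of at least 100 counts over all 64 libraries. Of 77 candidates among 30045 symbols, 6 fell short of that total. Just outside lay Rbm11 with 97 counts and Rbm44 with 81, followed by Rbm33-2 with 50, Rbmxl2 with 1, and Rbm12 and Rbm31y with 0. Just inside lay Srsf12 with 477 counts and Rbm12b with 915. All 71 members passed the filter on low counts in each fit, and none was at 0 in every library of a group.

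Most of the encoded proteins bind RNA through the RNA recognition motif, while hnRNP K binds through KH domains and hnRNP U and its relatives lack a classical form of that motif. SR proteins bind exonic enhancers and recruit the spliceosome, while many hnRNP proteins bind introns and exons and oppose inclusion of the exon. SR proteins are switched by kinases such as the CLK and SRPK enzymes, and several SR and hnRNP genes carry an exon whose inclusion marks their own messenger RNA for decay, so that their RNA level and protein level need not move together. RBM proteins are a mixed group, named for a motif rather than for a shared task, with members in spliceosome regulation, the exon junction complex, cold response and muscle splicing.

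Male Sprague-Dawley rats, an outbred laboratory stock, were kept in an inhalation chamber on 4 days, 6 hours each day, and breathed filtered air or fracking sand dust there. The dust was set at 10 mg/m3 in one study and 30 mg/m3 in the other, and each study had its own air rats. Lungs were taken 1, 7 or 27 days later, which gives 12 groups: at 10 mg/m3 (28 rats) each air or dust group held 5 animals on days 1 and 7 and 4 animals on day 27, and at 30 mg/m3 (36 rats) each held 6. The labels give no age. Total RNA came from a piece of lung, so a change in the number of cells of one type and a change in RNA per cell cannot be told apart. The rats are taken as separate animals from the numbers in their titles, and p-values measure the spread between these libraries. Whether the libraries of days 1 and 27 at 30 mg/m3 are independent was not tested, as set out under the other observations.

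Library totals ran from 3420235 to 12359518 counts, and the smallest was that of rat 27, which had breathed dust at 10 mg/m3 and was sampled on day 1. Air rats 51 and 53 of day 1 at 30 mg/m3 stood apart, with 21889 and 22077 genes detected against 17873 to 19731 in the other libraries. Mitochondrial ribosomal RNA took 3.01% of the counts of air rat 21 of day 1 at 10 mg/m3, against 0.0961% to 0.314% in the other 4 rats of that group. Alveolar type 2 markers were abundant in all 12 groups, with a summed level between 16488 and 29462 CPM (counts relative to the library total, the usual CPM unit, scaled by TMM factors), and no gene of that list was at 0 in every library. The lung label was met by these markers.

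The start regions of members that rose after dust at 30 mg/m3 are shown first, because their letters could be searched for words shared among the members. RefSeq held 69 members by symbol and 1 by a synonym, and the 250 bases before the start were searched for 64 members and for 27456 promoters in all. The synonym was Rbmxrtl, which RefSeq lists under Rbmxl1, itself a member. Both symbols have their own counts and were kept as separate members, so they may stand for the same gene. Of the 9 members that rose, 8 were searched, and 5 of those held a word marked below. The 4 printed here were picked from those 5 after the search, and are from assembly GRCr8, each on the plus strand: Hnrnpdl at chr14:9861466-9861715, Rbm3 at chrX:17020655-17020904, Srsf5 at chr6:106336506-106336755 and Srsf7 at chr6:20563802-20564051. Capitals mark the ETS word CCGGAAG, the CCAAT box and the E-box CACGTG, on either strand.
Hnrnpdl: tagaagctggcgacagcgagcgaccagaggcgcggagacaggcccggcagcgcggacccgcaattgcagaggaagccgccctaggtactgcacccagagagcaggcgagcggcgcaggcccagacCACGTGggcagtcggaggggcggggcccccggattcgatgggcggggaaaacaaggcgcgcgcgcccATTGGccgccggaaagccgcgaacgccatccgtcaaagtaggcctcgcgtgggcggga
Rbm3: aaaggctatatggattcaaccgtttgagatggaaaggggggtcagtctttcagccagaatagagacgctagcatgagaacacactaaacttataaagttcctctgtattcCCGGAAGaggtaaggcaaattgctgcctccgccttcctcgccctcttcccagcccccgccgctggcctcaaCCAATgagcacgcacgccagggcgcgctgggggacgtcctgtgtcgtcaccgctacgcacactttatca
Srsf5: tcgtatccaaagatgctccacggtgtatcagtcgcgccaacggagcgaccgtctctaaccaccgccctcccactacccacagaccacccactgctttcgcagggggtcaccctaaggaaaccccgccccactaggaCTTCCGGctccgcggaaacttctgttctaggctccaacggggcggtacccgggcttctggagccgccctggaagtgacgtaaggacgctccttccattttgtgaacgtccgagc
Srsf7: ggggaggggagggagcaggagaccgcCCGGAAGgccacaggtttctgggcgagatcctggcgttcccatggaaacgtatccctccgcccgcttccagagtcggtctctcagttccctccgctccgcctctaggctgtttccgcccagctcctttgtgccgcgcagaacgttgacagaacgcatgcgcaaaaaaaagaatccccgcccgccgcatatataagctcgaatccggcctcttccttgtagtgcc
Hnrnpdl held an E-box and a CCAAT box, Rbm3 an ETS word and a CCAAT box, and Srsf5 and Srsf7 an ETS word each. Hnrnpdl, Srsf5 and Srsf7 also held the GC box GGGCGG, which is not capitalised. No searched word was common to all 4. Over the 8 risen members searched, 3 held the ETS word, 3 the CCAAT box, 1 the E-box and 5 the GC box. Rbmx held a CCAAT box, and Pspc1, Rbm26 and Srsf6 held none of the 3 capitalised words.

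Each word was looked for on both strands, and no word contains another. The ETS word was in 15.6% of member promoters and 7.74% of all promoters, CCAAT in 53.1% and 34.3%, the E-box in 9.38% and 5.79%, and the GC box in 51.6% and 32.4%. The CRE word TGACGTCA was in 1.56% and 1.70%, and the D-box TTATGTAA in 1.56% and 0.816%. The median GC content was 60.6% for member promoters and 52% for all, and the shares are not adjusted for it. A match describes letters and was not tested as a site.

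Together the 71 genes took between 0.614% and 0.857% of the counts of a library. In air, their share was 0.679 ± 0.035% (SD, n = 5) at day 1 of the 10 mg/m3 study, 0.823 ± 0.029% (n = 5) at day 7 and 0.714 ± 0.073% (n = 4) at day 27. After dust at 10 mg/m3 the share was 0.650 ± 0.023%, 0.777 ± 0.032% (n = 5 each) and 0.756 ± 0.036% (n = 4). It was thus lower than in air on days 1 and 7 and higher on day 27. In air of the 30 mg/m3 study it was 0.647 ± 0.024%, 0.672 ± 0.012% and 0.674 ± 0.016% (n = 6 each), and after dust 0.688 ± 0.033%, 0.696 ± 0.023% and 0.717 ± 0.038%. The largest totals belonged to Hnrnpu, whose protein is a scaffold of chromatin and splicing, and Hnrnpk, which encodes a binder of C-rich RNA. Hnrnpu ranged over group means from 489 ± 45 CPM (n = 6, dust, day 1, 30 mg/m3) to 677 ± 35.3 CPM (n = 5, air, day 7, 10 mg/m3), and Hnrnpk from 449 ± 25.8 CPM (n = 4, dust, day 27, 10 mg/m3) to 606 ± 55 CPM (n = 6, dust, day 1, 30 mg/m3). No gene lengths are used here, so levels are compared within a gene only.

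**Figure D1:**
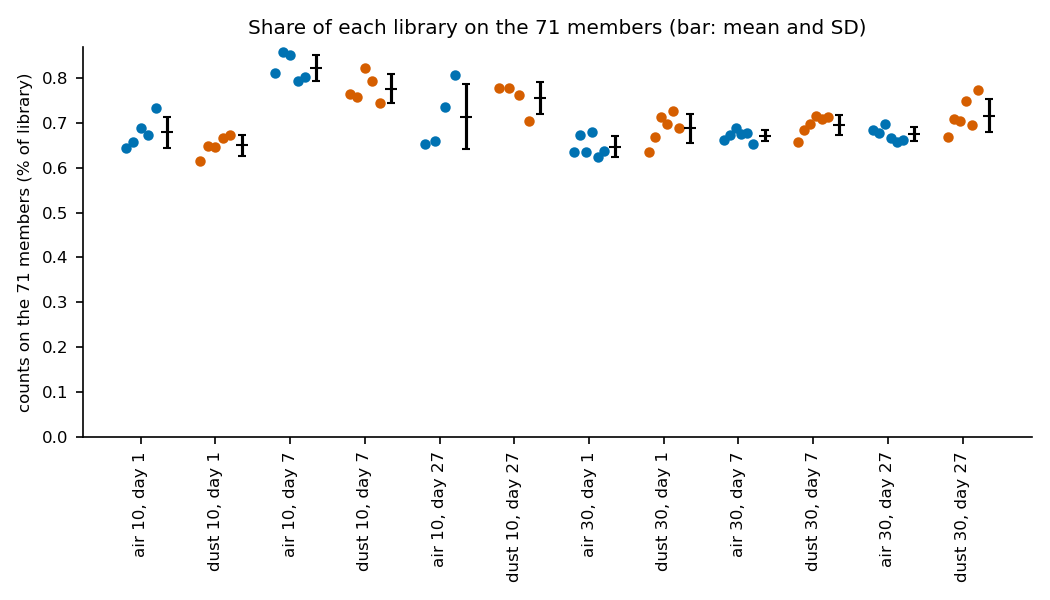
Share of each library's counts (%, y axis) that fell on the 71 RNA-binding genes, for the 12 groups (x axis). Points are rats, and bars give the mean and SD. The day 7 air group at 10 mg/m3 is highest (0.823%), and in the 30 mg/m3 study the dust mean lies above the air mean on each day. In the 10 mg/m3 study the dust mean lies below the air mean on days 1 and 7 and above it on day 27.

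The mean dust effect asks what dust did over days 1, 7 and 27 together within a study. At 30 mg/m3, 9 of the 71 members rose and none fell, with Srsf5, Srsf5-2, Srsf6 and Srsf7 from the SR genes, Rbm3, Rbm26 and Rbmx from the RBM genes, Hnrnpdl from the hnRNP genes, and Pspc1. Over all 15551 genes tested, 1.2% were called, of which 0.997% rose and 0.206% fell (edgeR quasi-likelihood test, Benjamini-Hochberg adjusted p under 0.05). The 9 are 12.7% of the members. The rises were small, with log2 fold changes between 0.16 and 0.43, and the median over all 71 members was 0.02 beside 0.01 over all genes. Of the 12 SR genes, 11 had a value above 0 and their median was 0.14. Of the hnRNP genes 10 of 18 were above 0 and of the RBM genes 22 of 38, with medians of 0.00 and 0.02, beside 52.3% of all genes above 0. The families were not tested against each other.

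Srsf5, which encodes an SR protein that binds exonic enhancers, ranged in air from 208 to 349 CPM (median 248) at day 1 and in dust from 276 to 406 CPM (median 334). At day 7 its air rats spanned 242 to 370 CPM (median 284) and its dust rats 276 to 403 CPM (median 336). At day 27 the air rats spanned 253 to 322 CPM (median 261) and the dust rats 284 to 429 CPM (median 326). Dust was higher by median on each day, and the 2 groups overlapped on each day. The mean effect was 0.31 (log2, SE 0.068, edgeR adjusted p = 0.0278). Srsf5-2, read as a second copy of the locus and therefore uncertain, ran at 12.0 to 14.6 CPM in air and 17 to 21.4 CPM in dust at day 27, where the 2 groups did not overlap. Its mean effect was 0.43 (SE 0.096, edgeR adjusted p = 0.0278).

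Srsf6, an SR gene whose product regulates alternative exons in many tissues, had group means of 130 ± 14.9, 140 ± 14.2 and 126 ± 11 CPM in air at days 1, 7 and 27 (SD, n = 6) and 155 ± 12.6, 151 ± 14.2 and 145 ± 13.3 CPM in dust. Its air and dust rats overlapped on each day, and its mean effect was 0.19 (SE 0.045, edgeR adjusted p = 0.0318). Srsf7, whose product also takes part in export of messenger RNA, had 64.5 ± 9.23, 71.8 ± 3.59 and 73.7 ± 5.58 CPM in air and 73.7 ± 3.63, 78.0 ± 4.87 and 83.6 ± 9.36 CPM in dust. Its mean effect of 0.16 (SE 0.043, edgeR adjusted p = 0.0480) was the smallest of the 9. Srsf2 and Srsf11 both had a mean effect of 0.14 and missed the threshold, each with an edgeR adjusted p of 0.0517. Srsf4 alone among the SR genes lay below 0, at -0.17 (adjusted p = 0.261).

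Hnrnpdl, which encodes an hnRNP D-like protein that binds AU-rich RNA, spanned 89 to 117 CPM in air (median 103) and 110 to 143 CPM in dust (median 126) at day 1. At day 7 it spanned 107 to 125 CPM in air (median 115) and 113 to 139 CPM in dust (median 128), and at day 27 it spanned 115 to 137 CPM in air (median 128) and 134 to 173 CPM in dust (median 152). The dust median was higher on each day and the groups overlapped on each day. Its mean effect of 0.22 (SE 0.041) had the smallest adjusted p of the members (edgeR, 0.0173). Its promoter is the one above with both an E-box and a CCAAT box. Hnrnph1, whose product binds G-rich RNA, had a mean effect of 0.20 that missed the threshold (edgeR adjusted p = 0.0649), and Hnrnpu, Hnrnpm and Hnrnpr each stood at 0.01.

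Rbm3, the cold-inducible RNA-binding gene, spanned 116 to 154 CPM in air (median 131) and 149 to 217 CPM in dust (median 177) at day 1. At day 7 it spanned 109 to 175 CPM in air (median 116) and 115 to 181 CPM in dust (median 144). At day 27 every dust rat, at 140 to 165 CPM (median 152), lay above every air rat, at 109 to 137 CPM (median 128). Its mean effect was 0.30 (SE 0.063, edgeR adjusted p = 0.0223). Cirbp, the other cold-inducible gene of this kind and not a member, also rose in the mean effect at 30 mg/m3, by 0.20 (SE 0.044, edgeR adjusted p = 0.0255).

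Rbm26, whose product takes part in nuclear RNA decay, had 124 ± 22.1, 144 ± 6.48 and 139 ± 9.62 CPM in air at days 1, 7 and 27 (SD, n = 6) and 155 ± 22.3, 170 ± 16.8 and 171 ± 24.7 CPM in dust. Its mean effect was 0.29 (SE 0.057, edgeR adjusted p = 0.0218). Rbmx, the X-linked gene of hnRNP G, which shares sequence with Rbmxl1 and Rbmxrtl and can share reads with them, had a mean effect of 0.19 (SE 0.046, edgeR adjusted p = 0.0340). Pspc1, the paraspeckle gene, spanned 37.5 to 41.0 CPM in air (median 39.4) and 42.8 to 61.3 CPM in dust (median 45.8) at day 27, where the groups did not overlap. Its mean effect was 0.25 (SE 0.049, edgeR adjusted p = 0.0218), beside -0.01 for Sfpq and -0.04 for Nono.

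**Figure D2:**
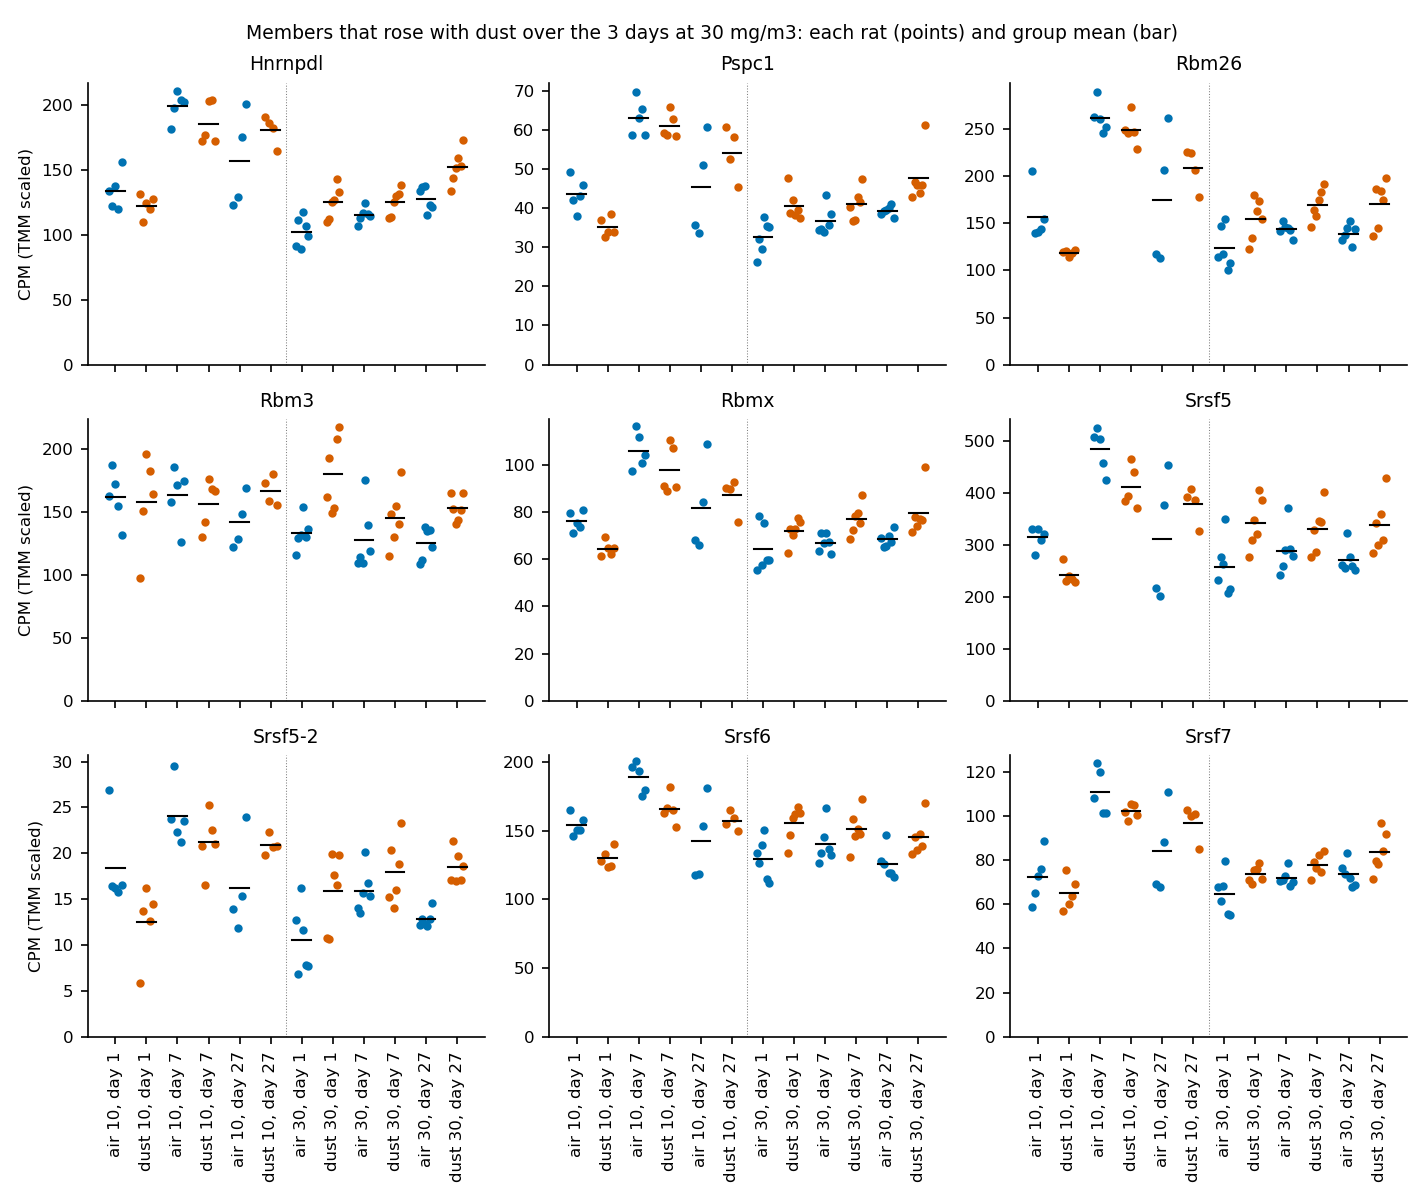
Level of the 9 members that rose over the 3 days at 30 mg/m3 (CPM, y axis) in each of the 12 groups (x axis). Points are rats and bars are group means, and a dotted line separates the 2 studies. In the 30 mg/m3 study the dust mean lies above the air mean on each day for each of the 9 genes, and in the 10 mg/m3 study Srsf5, Rbm26, Hnrnpdl and Pspc1 show a wide range among the 4 air rats of day 27.

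The mean share of mitochondrial ribosomal RNA at 30 mg/m3 was lower in dust than in air on each day. It was 0.459 ± 0.283%, 0.678 ± 0.157% and 1.14 ± 0.433% in air of the 30 mg/m3 study (days 1, 7 and 27, SD, n = 6) and 0.270 ± 0.13%, 0.256 ± 0.140% and 1.00 ± 0.461% in dust. With this share as a covariate, 1 of the 9 members, Hnrnpdl (edgeR adjusted p = 0.0334), passed the threshold in the mean effect, and it was the only gene called of all genes tested. The log2 values of the 9 in that fit ran from 0.14 to 0.27, all above 0, against 0.16 to 0.43 without the covariate. Srsf5 stood at 0.25, Rbm3 at 0.23, Rbm26 at 0.27 and Pspc1 at 0.27, and the largest move was that of Srsf5-2, from 0.43 to 0.27. Without air rats 51 and 53, 17 members passed, 16 higher and 1 lower, including all 9, among 1014 genes in all. Leaving out 1 rat at a time gave 4 to 14 members called, with 4 without dust rat 79 of day 7 or dust rat 96 of day 27 and 14 without air rat 53 of day 1. Over all genes the same fits called 22 to 610, against 187 with every rat.

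Of the marker lists in the same contrast, the cardiac muscle genes were above 0 in 0 of 10 tested (median -0.63), with Myl3, a myosin light chain gene, past the threshold at -3.31 (edgeR adjusted p = 0.0304). No gene of the other marker lists passed. Above 0 were 5 of 5 proliferation genes, 5 of 5 T cell genes, 3 of 3 liver genes, 0 of 9 heat shock genes, 0 of 6 alveolar type 1 genes and 0 of 4 alveolar macrophage genes. The alveolar type 2 (4 of 8), endothelial (2 of 6), ciliated (2 of 5), erythroid (1 of 4) and clock (5 of 11) genes pointed both ways. The summed level over the 3 days spanned 119 to 1892 CPM in air and 133 to 684 CPM in dust for the cardiac list and 59.6 to 147 CPM in air and 61.8 to 242 CPM in dust for the proliferation list. It spanned 46.1 to 74.8 CPM in air and 41.9 to 100 CPM in dust for the T cell list and 758 to 1190 CPM in air and 674 to 1036 CPM in dust for the heat shock list. With the mean log2 level of the cardiac list as a covariate, 7 members and 154 genes in all passed (edgeR), against 9 and 187 without it. With clock phase (log2 Dbp minus log2 Arntl) as a covariate, 7 members and 81 genes passed. The part of the other lists in the members' values was not tested.

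On single days at 30 mg/m3, no member passed the threshold (edgeR, Benjamini-Hochberg). The share of all genes called was 0% at day 1, 0.0643% at day 7 and 0% at day 27, and 25, 4 and 15 members had an unadjusted p under 0.05, which is 35.2%, 5.63% and 21.1% of them beside 15%, 4.99% and 7.34% of all genes. At day 1 the smallest p-values belonged to Rbm3 (0.44, SE 0.11, adjusted p = 0.161), Hnrnpdl (0.29, SE 0.072, adjusted p = 0.163) and Pspc1 (0.32, SE 0.086, adjusted p = 0.169). DESeq2 called Rbm3 (adjusted p = 0.0362) and Hnrnpdl (adjusted p = 0.0431) on that day, among 40 genes in all. Without air rat 53, 6 members and 220 genes in all passed in edgeR, and without air rats 51 and 53, 13 members and 877 genes. At day 27 Hnrnpdl (0.25, SE 0.072), Pspc1 (0.28, SE 0.085) and Srsf5-2 (0.53, SE 0.17) had the smallest p-values, with edgeR adjusted p-values of 0.388 to 0.416.

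At day 7 of the 30 mg/m3 study the smallest p-values among members belonged to Rbm20 and Rbm24, which encode splicing regulators of striated muscle. Rbm20 spanned 4.23 to 7.21 CPM in air and 3.10 to 5.62 CPM in dust, a difference of -0.50 (SE 0.18, edgeR adjusted p = 0.657). Rbm24 spanned 5.19 to 6.35 CPM in air and 2.80 to 5.33 CPM in dust, a difference of -0.41 (SE 0.16, edgeR adjusted p = 0.814). Both missed the threshold, and their groups overlapped. The cardiac muscle list was lower in the same dust rats, with 10 of 10 tested genes below 0 and 2 past the threshold; its summed level was 553 to 1892 CPM in air and 149 to 385 CPM in dust. A fit with the mean level of the cardiac list as a covariate was also run, and the 2 values from it are not reported here.

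At 10 mg/m3, no member passed in the mean dust effect, where 0.0319% of all genes were called (edgeR), and 8 members had an unadjusted p under 0.05 (11.3% beside 9.27% of all genes). Of the 12 SR genes, 3 had a value above 0 and their median was -0.06. The smallest p belonged to Rbm46 (-0.34, SE 0.12, edgeR adjusted p = 0.420). The 9 members that rose at 30 mg/m3 had values from -0.11 to 0.05 here, with Srsf5 at -0.11 (SE 0.086) and Rbm3 at 0.05 (SE 0.082).

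**Figure D3:**
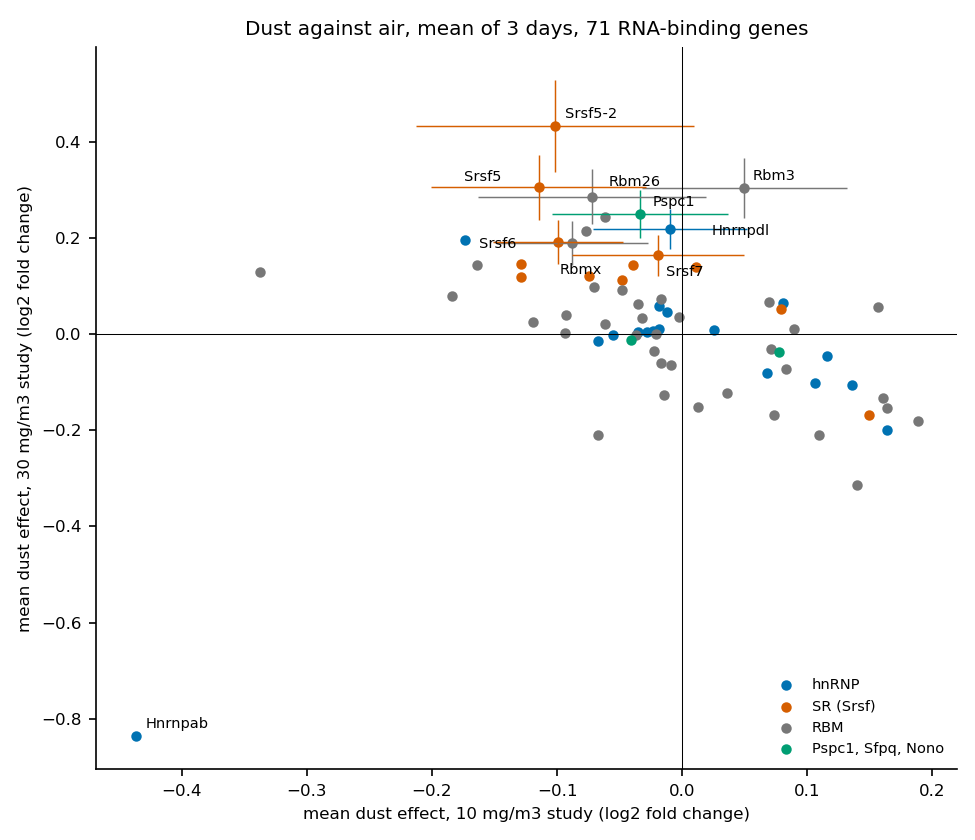
Mean dust effect (log2 fold change, mean of 3 days) of each of the 71 members at 10 mg/m3 (x axis) and at 30 mg/m3 (y axis), coloured by family. The 9 members that rose at 30 mg/m3 lie between 0.16 and 0.43 on the y axis and between -0.11 and 0.05 on the x axis.

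At day 1 after 10 mg/m3 no member was called, and 0.128% of all genes were (edgeR). A total of 28 members had an unadjusted p under 0.05, which is 39.4% of them beside 18.9% of all genes, and they pointed both ways. Hnrnph1 stood at 295.9, 295.9, 323.4, 296.3 and 313.9 CPM in the air rats and at 169.2, 242.6, 244.4, 252.4 and 248.5 CPM in the dust rats. The dust rats were all lower, and the lowest was rat 27. Its difference was -0.40 (SE 0.12, edgeR adjusted p = 0.0945). Rbm5, whose product regulates splicing of apoptosis genes, stood at 227.0, 206.8, 213.1, 209.9 and 187.9 CPM in air and 133.2, 177.6, 160.4, 163.3 and 177.7 CPM in dust, again with all dust rats lower. Its difference was -0.36 (SE 0.10, edgeR adjusted p = 0.0900).

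Srsf1, the prototype SR gene, had a day 1 difference of -0.27 at 10 mg/m3 (SE 0.084, edgeR adjusted p = 0.107), and Srsf5 one of -0.38 (SE 0.14), with 5 dust rats at 229 to 273 CPM below 5 air rats at 281 to 331 CPM. Rbmxl1, a retrocopy relative of Rbmx that can share reads with it, had the smallest adjusted p of the members (0.56, SE 0.15, edgeR adjusted p = 0.0837). Hnrnpl, a binder of CA repeats, stood at 0.22 (SE 0.073) and Hnrnpul1 at 0.28 (SE 0.099), also short of the threshold. Without air rat 21, the library with the high mitochondrial ribosomal RNA share, 14 members passed at day 1, among them Rbmxl1, Hnrnpl, Hnrnpul1, Rbm5 and Srsf1, and so did 1147 of all genes, against 20 with that rat. DESeq2 called 4 members, all lower, and 474 genes in all. At days 7 and 27, 4 members and 1 member had an unadjusted p under 0.05 (5.63% and 1.41% of them beside 3.96% and 2.36% of all genes) and none was called (edgeR, with 0% of all genes called on both days).

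The doses were compared as the difference between the 2 mean effects. Each dose was a separate study with its own air rats, so dose and study cannot be told apart here. The difference was positive and past the threshold in 7 members and negative in none, while 2.09% of all genes were called, 1.54% in the positive and 0.55% in the negative direction (edgeR, Benjamini-Hochberg). They were Srsf5-2 (0.54, SE 0.15), Srsf5 (0.42, SE 0.11), Hnrnph1 (0.37, SE 0.089), Rbm5 (0.31, SE 0.072), Srsf6 (0.29, SE 0.069), Rbmx (0.28, SE 0.075) and Srsf1 (0.28, SE 0.073), with edgeR adjusted p-values from 0.0330 to 0.0451. Each of the 7 had a mean effect below 0 at 10 mg/m3 and above 0 at 30 mg/m3. Rbm3, Hnrnpdl, Pspc1 and Rbm26 were not among them. In the 10 mg/m3 study the mean mitochondrial ribosomal RNA share was higher in dust on day 1 (1.05 ± 0.888% against 0.734 ± 1.28% in air, SD). It was also higher in dust on day 7 (2.09 ± 0.646% against 1.61 ± 1.62%) and lower on day 27 (2.91 ± 0.290% against 3.33 ± 0.454%). With mitochondrial ribosomal RNA share or with clock phase (log2 Dbp minus log2 Arntl) as a covariate no member was called, and no gene at all. The log2 values of the 7 then ran from 0.17 to 0.39 with the RNA share and from 0.27 to 0.56 with clock phase, against 0.28 to 0.54 without a covariate. With the RNA share Srsf5 stood at 0.39, Hnrnph1 at 0.31 and Srsf6 at 0.25, and the largest moves were those of Srsf5-2, from 0.54 to 0.33, and Srsf1, from 0.28 to 0.17. Without air rats 51 and 53, 20 members and 1421 genes in all were called. Leaving out 1 rat gave 4 to 1046 genes called over all genes, against 338 with every rat, and 0 to 17 members, with 0 without dust rat 48 of day 7, air rat 6 or dust rat 16 of day 27 at 10 mg/m3, or dust rat 79 of day 7 at 30 mg/m3, and 17 without air rat 53. The clock list moved in the 10 mg/m3 study, with 3 genes higher and 2 lower in its mean dust effect, and 0 called at 30 mg/m3.

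Among air rats, the members moved with the day of sampling, most of all between days 1 and 7 of the 10 mg/m3 study. There 22 members were higher and 2 lower at day 7, beside 3.53% and 2.37% of all genes, 5.9% in all (edgeR). The median over the members was 0.25, beside 0.00 over all genes. By family, 6 of 12 SR genes, 5 of 18 hnRNP genes, 10 of 38 RBM genes and 1 of the 3 paraspeckle genes rose. Air rats of different days are different animals, and the comparisons with days 7 and 27 share the air rats of day 1.

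Rbm25, a regulator of 5′ splice site choice, rose by 0.76 (SE 0.14, edgeR adjusted p = 0.00400). It stood at 58.97, 36.84, 38.16, 37.14 and 52.24 CPM in air rats of day 1 and at 58.54, 87.89, 72.83, 81.77 and 76.08 CPM in those of day 7. The lowest day 7 rat lay just under the highest day 1 rat. Rbm25l1, its close copy, rose by 0.69 and may share its reads. Rbm26 stood at 205.6, 139.8, 141.1, 144.4 and 155.0 CPM at day 1 and at 262.9, 289.8, 261.2, 245.6 and 252.7 CPM at day 7, without overlap, a rise of 0.74 (SE 0.15, edgeR adjusted p = 0.00627).

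Srsf5 stood at 331.3, 281.4, 331.1, 309.3 and 321.3 CPM in the day 1 air rats at 10 mg/m3 and at 507.7, 526.2, 503.9, 458.6 and 425.7 CPM in those of day 7, a rise of 0.62 (SE 0.14, edgeR adjusted p = 0.0118) with no overlap. Srsf7 rose by 0.62, Hnrnph1 and Srsf2 by 0.58, and Hnrnpdl by 0.57. Rbm8a, the Y14 subunit of the exon junction complex, rose by 0.68 and Rbm28, a nucleolar RNA-binding gene, by 0.70. Rbm42, whose product partners hnRNP K, fell by 0.54 (SE 0.14, edgeR adjusted p = 0.0198), from 50.5 ± 5.32 CPM to 34.7 ± 5.33 CPM (SD, n = 5). Rbm45, a gene first known from developing neurons, fell by 0.25.

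Of the 9 members that rose with dust at 30 mg/m3, 7 were among the 22 that rose in air between days 1 and 7 at 10 mg/m3, which is 7 of 9 of the first list and 7 of 22 of the second, in rats of separate studies. Over all genes 155 rose in the first contrast and 553 in the second, and how many were shared was not counted. In air of the 30 mg/m3 study no member was called between days 1 and 7, where 0.116% of all genes were (edgeR), and 8 members had an unadjusted p under 0.05 (11.3% beside 12% of all genes). All 12 SR genes were above 0 there, with a median of 0.11, and Srsf5 stood at 0.17 (SE 0.12) and Rbm25 at -0.06 (SE 0.084). Leaving out 1 rat in the 10 mg/m3 study gave 296 to 2099 of all genes called, against 925 with every rat, and 13 to 30 members, with 13 without air rat 18, 19 or 20 of day 1 or 34 of day 7 and 14 without air rat 36 of day 7.

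Between days 1 and 27, 8 members rose and 1 fell in air of the 10 mg/m3 study, beside 2.08% and 0.894% of all genes, 2.97% in all (edgeR). Rbm8a rose by 1.00 (SE 0.21, edgeR adjusted p = 0.0159), from 11.37, 16.33, 19.70, 17.17 and 41.84 CPM at day 1 to 44.19, 47.05, 43.52 and 37.20 CPM at day 27. The day 1 rat at 41.84 CPM was rat 21, and it lay among the day 27 rats. Rbm28 rose by 0.88, Hnrnpul2 by 0.80, Hnrnpa2b1 by 0.60, Rbm25l1 by 0.59, Srsf4 by 0.57, Nono by 0.40 and Rbm27 by 0.34, while Rbm45 fell by 0.32. Rat 21 was the highest of the day 1 rats for Rbm28 (32.74 CPM against 10.57 to 16.35) and for Hnrnpul2 (149.1 CPM against 63.53 to 84.09) as well.

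In air of the 30 mg/m3 study, 10 members rose and 2 fell between days 1 and 27, which is 16.9% of the members beside 12.9% of all genes called (5.55% higher and 7.36% lower, edgeR). The members' total was near that of all genes, but by direction 14.1% of the members rose and 2.82% fell. Rbm19 rose by 0.55, Hnrnpul2 by 0.52, Srsf4 by 0.43, Rbm33 by 0.43, Sfpq by 0.35, Hnrnpdl by 0.32, Pspc1 by 0.27 and Srsf2 by 0.24, while Rbm45 fell by 0.23 and Hnrnpf by 0.20. Srsf4, Hnrnpul2 and Rbm45 passed in the same direction in both studies, which is 3 of 9 and 3 of 12. Over all genes 466 and 2007 were called, and how many passed in the same direction in both was not counted. Of all members, 12.7% were called at 10 mg/m3 and 16.9% at 30 mg/m3. Rbm45 went from 27.3 ± 1.74 CPM (n = 5) to 21.9 ± 0.816 CPM (n = 4) in the 10 mg/m3 study and from 26.6 ± 2.54 CPM to 22.6 ± 1.29 CPM (n = 6 each) in the 30 mg/m3 study.

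The mean mitochondrial ribosomal RNA share in air was also higher at day 27, going from 0.734 ± 1.28% at day 1 to 3.33 ± 0.454% at day 27 in the 10 mg/m3 study (n = 5 and 4) and from 0.459 ± 0.283% to 1.14 ± 0.433% in the 30 mg/m3 study (n = 6 each). With that share as a covariate no member was called between days 1 and 27 in either study. Over all genes 5 were called at 10 mg/m3 and 185 at 30 mg/m3 in those fits. The counts also moved with single rats, and over all genes with them, from 2 to 1467 at 10 mg/m3 (466 with every rat) and from 1068 to 2778 at 30 mg/m3 (2007 with every rat). In the 10 mg/m3 study 20 members passed without air rat 21 of day 1, 5 without rat 17, 4 without rat 20, 2 without air rat 1 or 3 of day 27, and 0 without air rat 18 or 19 of day 1 or 5 of day 27. In the 30 mg/m3 study 3 passed without air rat 52 of day 1, 5 without rat 49, 6 without rat 51, 7 without rat 53, 5 without rat 82 or 85 of day 27, and 7 without rat 81 or 87.

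The air rats of the 2 studies were compared over the 3 days as a check of level, since study and batch cannot be told apart. In the 30 mg/m3 study 7 members were higher and 32 lower than in the 10 mg/m3 study, beside 12.7% and 17.1% of all genes, 29.8% in all (edgeR). Of the 12 SR genes 8 were lower, none was higher past the threshold, and all 12 were below 0. Hnrnpdl was lower by 0.50 (log2 -0.50, SE 0.052, edgeR adjusted p = 1.73e-11), Rbm26 stood at -0.52, Pspc1 at -0.48 and Srsf5 at -0.42. Higher were Rbm38 (1.55), Hnrnpa1 (0.48), Hnrnpr (0.31), Rbm42 (0.21), Hnrnpk (0.20), Rbm43 (0.19) and Hnrnpf (0.17). Erythroid genes were higher in the same contrast in 4 of 4 tested (median 4.23).

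**Figure D4:**
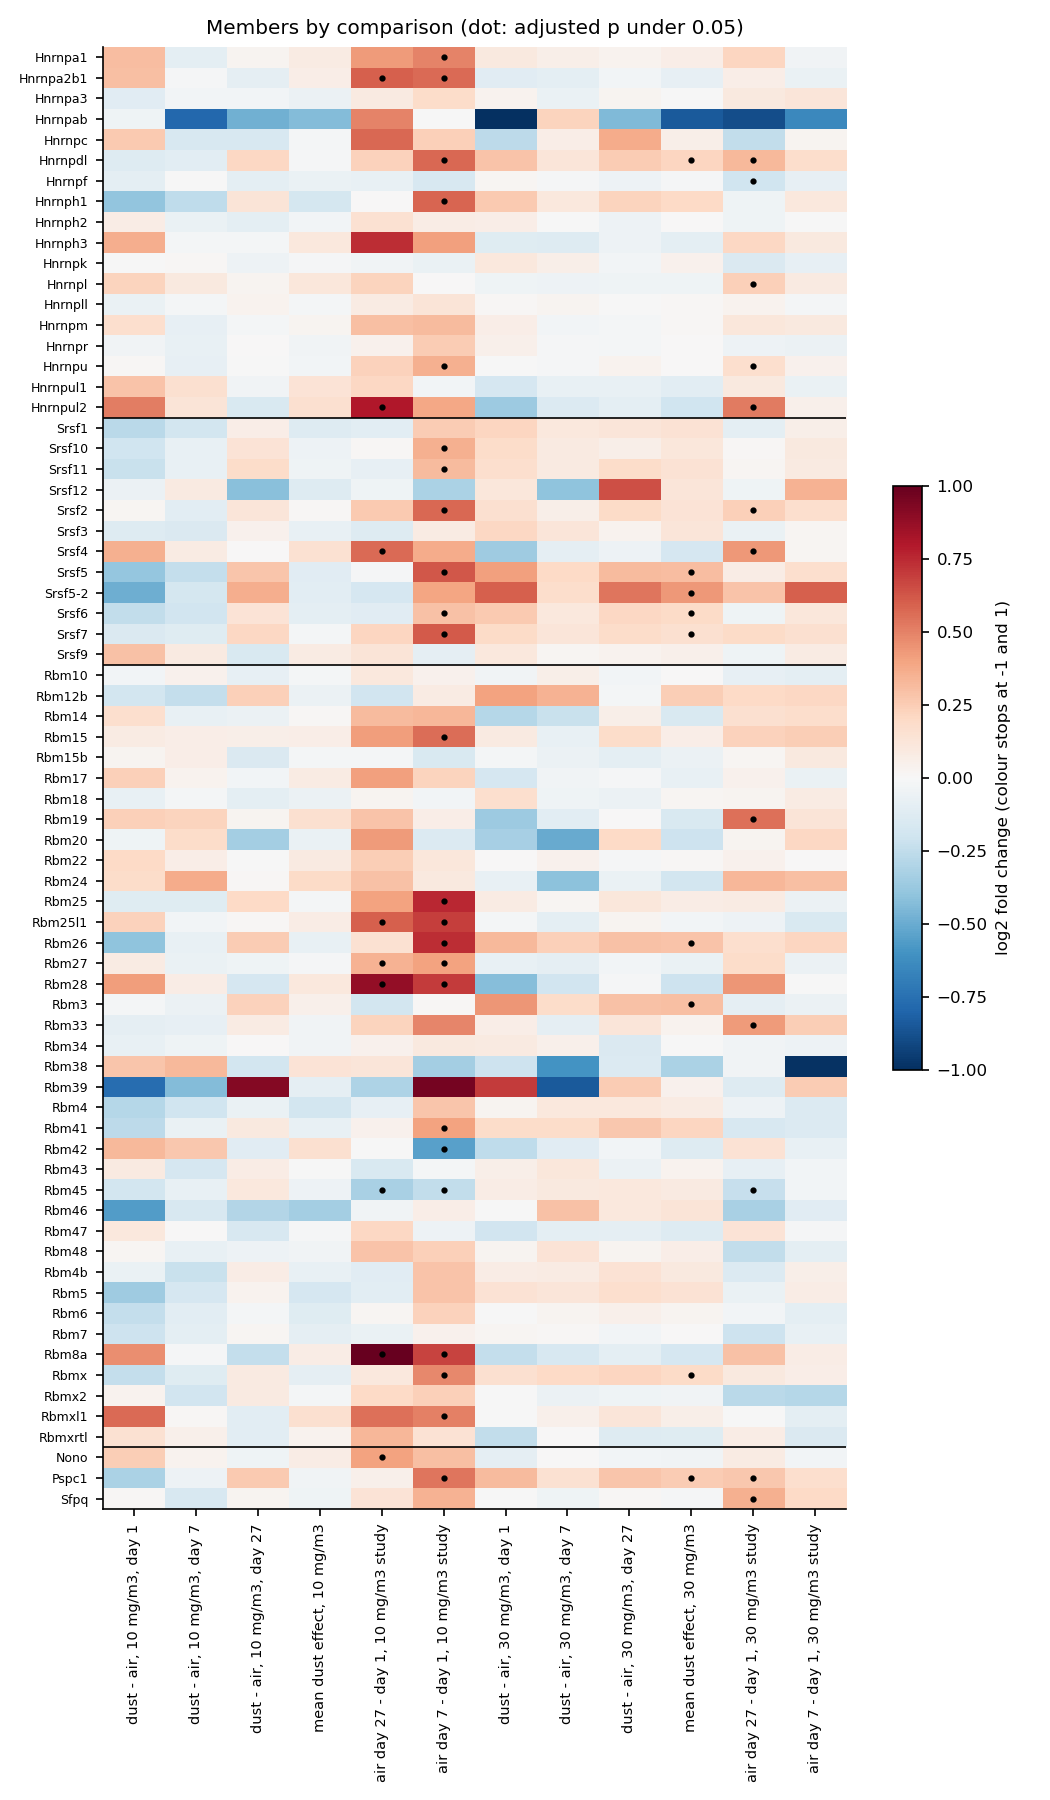
Log2 fold change (colour, which stops at -1 and 1) of the 71 members (rows, by family) in each comparison within a study (columns). A dot marks an edgeR adjusted p under 0.05. The column of air between days 1 and 7 at 10 mg/m3 (24 dots) holds the most dots, and the 6 single-day dust columns hold none. The comparisons between the studies are not drawn.

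Most members varied little between rats. The median biological coefficient of variation of the members was 12.6% at 10 mg/m3 and 11.1% at 30 mg/m3, against 13.5% and 12.7% over all genes tested. The narrowest were Rbm45 (5.56% and 7.50%), Rbm10 (6.85% and 5.90%), Rbm18 (7.54% and 7.37%), Hnrnpll (8.17% and 5.81%) and Rbm6 (8.36% and 6.67%). The widest were Hnrnpab (82.7% and 119%), Rbm39 (39.2% and 57.9%), Rbm38 (14.9% and 67.4%) and Hnrnpc (27.6% and 33%).

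Hnrnpab, a gene of the A/B type hnRNP proteins, fell into separate ranges. In 2 of 28 libraries of the 10 mg/m3 study and 13 of 36 of the 30 mg/m3 study it lay at or under 1.32 CPM, and in each of the rest it was at least 5.53 CPM. Low libraries occurred in each of the 6 groups of the 30 mg/m3 study. Rbm39, whose product is a splicing factor and transcriptional coactivator, ranged from 3.36 to 56.9 CPM over all rats. Among the day 7 air rats at 10 mg/m3, 1 stood at 52.9 CPM and the others at 11.9 to 17.7 CPM.

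Rbm38, a p53 target gene that is also known from the splicing programme of red cell precursors, was even in the 10 mg/m3 study, where group means lay between 12.5 ± 2.42 CPM (n = 5) and 19.3 ± 2.95 CPM (n = 5). In the 30 mg/m3 study single rats reached 114 CPM in air and 151 CPM in dust at day 1, and 134 CPM in air and 155 CPM in dust at day 27, while the lowest rats of those groups lay between 17 and 20.4 CPM. Alas2, the haem synthesis enzyme of red cell precursors, spanned 69.9 to 7549 CPM over the same 36 rats. As deviations from group means, Rbm38 and Alas2 were related in the 30 mg/m3 study (Pearson's r = 0.914, Spearman's rho = 0.894, n = 36, permutation adjusted p = 4.8e-05 and 8e-05; r = 0.873 without the 2 rats farthest on Alas2). In the 10 mg/m3 study they were not related past the threshold (r = 0.118, rho = 0.128, n = 28, permutation adjusted p = 0.616 and 0.556; r = 0.243 without 2 rats). Values of p were adjusted over 24 relations, 12 in each study. They take the libraries as independent, which was not tested. The Rbm38 and Alas2 values of days 1 and 27 at 30 mg/m3 run alike by rat order, as listed under the other observations.

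**Figure D5:**
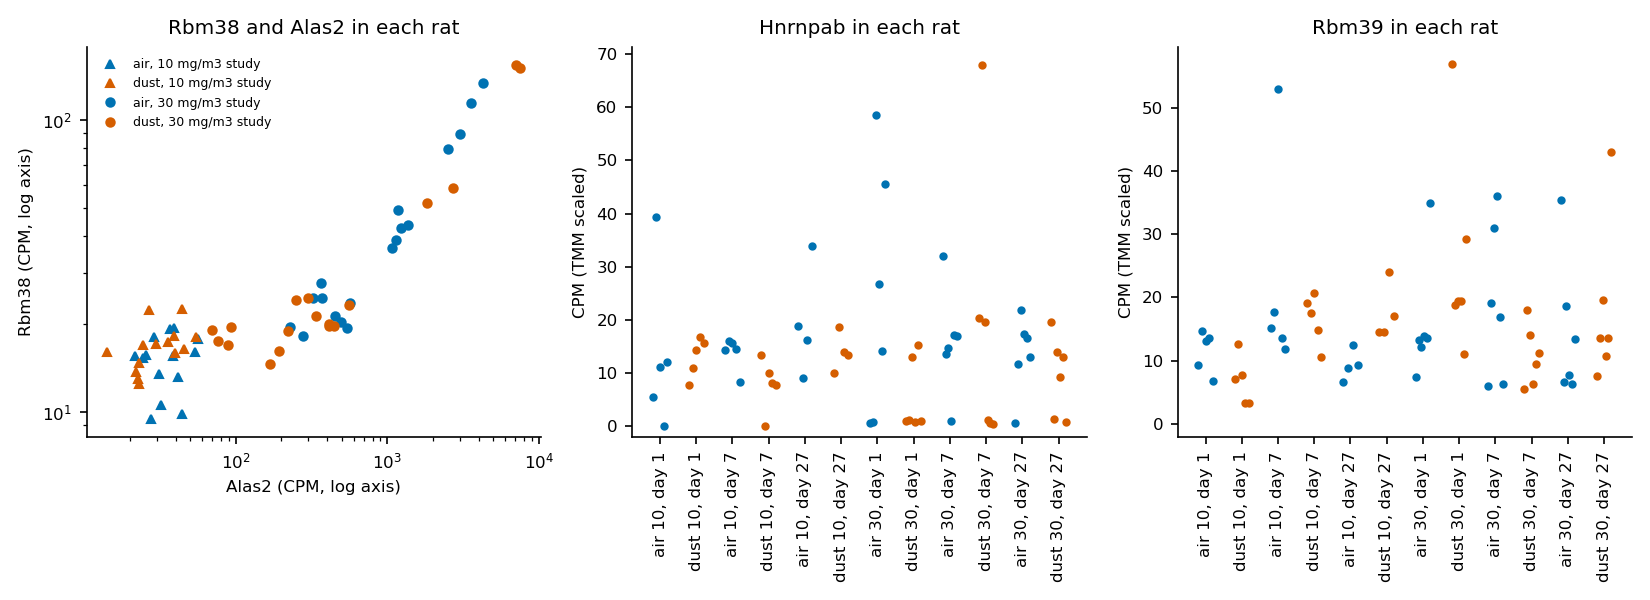
Rbm38 against Alas2 in each rat (CPM, both axes logarithmic) and the levels of Hnrnpab and Rbm39 in each rat by group (CPM). In the 30 mg/m3 study Rbm38 follows Alas2 from 69.9 to 7549 CPM of Alas2, and Hnrnpab splits into libraries at or under 1.32 CPM and libraries at or above 5.53 CPM.

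Deviations of Srsf5 between rats of the same group were set against those of the other 8 members that rose at 30 mg/m3. These 8 were picked because they were called in the same data. The share of all genes, or of the other members, related to Srsf5 was not computed, so the counts below have no background. Pearson's r passed the threshold for 6 of the 8 at 10 mg/m3, all but Rbm3 and Srsf5-2, and for 7 at 30 mg/m3, all but Pspc1 (r = 0.411, rho = 0.279, permutation adjusted p = 0.0518 and 0.174). For Srsf7 at 10 mg/m3 r was 0.651 (adjusted p = 0.0266), but rho was 0.482 and missed the threshold (permutation adjusted p = 0.0731), and r was 0.417 without the 2 rats farthest on Srsf5. Deviations of Srsf5 from its group means were related to those of Srsf6 with r = 0.891 at 10 mg/m3 (rho = 0.767, n = 28) and 0.892 at 30 mg/m3 (rho = 0.838, n = 36), and to those of Rbm26 with r = 0.899 (rho = 0.740) and 0.762 (rho = 0.768). Without the 2 rats farthest on Srsf5, r was 0.786 and 0.864 for Srsf6 and 0.789 and 0.767 for Rbm26. The permutation adjusted p of r was at most 0.000552 for these 4 relations and that of rho at most 0.00156. For Hnrnpdl r was 0.835 and 0.697 (rho = 0.687 and 0.668, permutation adjusted p of r = 0.00112 and 6.86e-05 and of rho = 0.00613 and 0.00044; r = 0.741 and 0.646 without 2 rats).

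Rbm3 was related to Srsf5 at 30 mg/m3 (r = 0.659, rho = 0.572, permutation adjusted p = 9e-05 and 0.00156; r = 0.571 without 2 rats) but not past the threshold at 10 mg/m3 (r = 0.235, rho = 0.268, permutation adjusted p = 0.283 and 0.244; r = 0.0738 without 2 rats). Rbm3 and Cirbp were not related past the threshold in either study (r = 0.120 and 0.370, rho = 0.354 and 0.327, permutation adjusted p of r = 0.650 and 0.0893 and of rho = 0.149 and 0.109), and without the 2 rats farthest on Rbm3 r was 0.569 and 0.336. The kinase gene Clk4, not a member, was related to Srsf5 with r = 0.756 at 10 mg/m3 and 0.932 at 30 mg/m3 (rho = 0.675 and 0.919, permutation adjusted p of r = 0.00545 and 4.8e-05 and of rho = 0.00523 and 8e-05; r = 0.616 and 0.911 without 2 rats). The mitochondrial ribosomal RNA share was not related to Srsf5 within groups past the threshold (r = 0.018 and -0.257, rho = -0.113 and -0.259, permutation adjusted p of r = 0.864 and 0.227 and of rho = 0.556 and 0.198; r = 0.0254 and -0.281 without 2 rats). Libraries share their counting, and the relations are between rats.

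At day 27 in air of the 10 mg/m3 study this appeared in single rats. Srsf5 stood at 217.5 CPM in rat 1, 200.8 in rat 3, 377.1 in rat 5 and 454.2 in rat 6. Rbm26 stood at 117.7, 113.5, 206.7 and 261.6 CPM in the same order, Pspc1 at 35.78, 33.49, 51.04 and 60.82 CPM, and Hnrnpdl at 123.1, 129.4, 175.1 and 200.4 CPM. For each of the 4 genes rats 1 and 3 were low and rats 5 and 6 high, and the dust rats of that day lay between the extremes.

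Other genes of the splicing pathway were read from lists chosen by function. In the mean dust effect at 30 mg/m3, 2 of 18 splicing kinases and partners rose (Clk4 by 0.34, Luc7l2 by 0.21), as did 1 of 19 core splicing factors (Sf3b1, 0.23), 2 of 19 tissue splicing regulators (Ptbp2, 0.32, and Tia1, 0.30) and 1 of 10 FET and related genes (Cirbp), with 0 of 9 tested genes of nonsense-mediated decay and none lower in any of these lists (edgeR). Over all genes, 0.997% rose and 0.206% fell. Medians were 0.08, -0.04, -0.04, 0.06 and -0.01 in that order, beside 0.01 over all genes. In the difference between doses Clk1 (0.53), Clk4 (0.57) and Luc7l3 (0.46) of the kinases and partners passed, all higher. Of the other lists in that contrast, Sf3b1 (0.34), Tia1 (0.42), Tial1 (0.33) and Ddx5 (0.25) passed in the positive direction and Prpf19 (-0.31) and Esrp1 (-0.28) in the negative one (edgeR). Over all genes in that contrast, 1.54% passed in the positive and 0.55% in the negative direction. Between days 1 and 7 in air at 10 mg/m3, 9 of the 18 kinases and partners rose and none fell, beside 3.53% and 2.37% of all genes. In air between the studies 15 of the 18 were lower in the 30 mg/m3 study, beside 17.1% of all genes.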

How the data were processed

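The authors deposited raw read counts, whole numbers for each gene symbol, with a column for every library and a separate table for each study, and applied no normalisation. The submitters' processing notes name HTSeq 0.6.1, HISAT2 2.1.0, SAMtools 1.8, Trimmomatic 0.35, bcl2fastq 2.19 and the build Rnor_6.0; per the labels' protocols the kit kept strand. Neither the gene annotation nor how HTSeq handled strand is stated in the sources used here. Overlapping and antisense genes are therefore uncertain, and members with near-identical copies can lose or share reads.

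The tests were run with edgeR 4.0.16 (R 4.3.3): TMM scaling, filterByExpr (minimum count 10, minimum total 15), the robust quasi-likelihood F test and Benjamini-Hochberg adjustment over all genes tested, at 0.05. Each study was fitted with its 6 groups together (15668 and 15551 genes), and comparisons between studies used 1 fit of all 64 libraries (16190 genes). The common biological coefficient of variation was 16.1% and 16.7%. Alternatives were RLE size factors, DESeq2 1.42.0, limma 3.58.1 (voom), no filter, covariates, only the 2 compared groups, and leaving out each rat; covariates for clock phase and for genes detected were added after the data were seen. Relations between rats used log2(CPM + 0.5) as deviations from group means, with 100000 permutations within groups. The procedure was tested on simulated data.

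The members and the gene lists were chosen with earlier results of these data known. Named were a panel of members, all members called where 10 or fewer were and otherwise the 8 largest in each direction, the 3 smallest p-values in each direction where none was called, and the 3 widest and 3 narrowest in spread in each study. Further members called are named as examples, chosen after their values were seen. The panel gene Hnrnpd was not analysed here. Marker lists covered alveolar type 1 and type 2 cells, endothelium, ciliated cells, alveolar macrophages, cardiac muscle, erythroid cells, liver, proliferation, T cells, clock and heat shock genes; in the mean dust effect at 30 mg/m3, 1 gene of the cardiac list (Myl3, lower) passed and no gene of the other marker lists did.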

Additional observations from a re-analysis of the deposited data

Results flagged for a closer look

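Of 192 sets of values of 1 gene in 1 group, taken over 16 members, 18 held a rat far from the others of its group by Dixon's test, and chance gives about 1 in 20. The 16 include Hnrnpab, Rbm39, Rbm38 and Hnrnpc, the members of widest spread in these same data. The count of 18 can therefore not be read against that rate. At 10 mg/m3, dust rat 27 of day 1, the library with the smallest total, stood out for Hnrnph1 (169 CPM, the others 243 to 252), Srsf1 (207 CPM, the others 274 to 296) and Srsf5 (273 CPM, the others 229 to 240). At 30 mg/m3, dust rat 96 of day 27 stood out for Pspc1 (61.3 CPM, the others 42.8 to 46.7), Rbm39 (42.98 CPM, the others 7.65 to 19.6) and Rbmx (99.3 CPM, the others 71.4 to 78.1). Air rat 17 of day 1 at 10 mg/m3 stood out for Rbm26 (206 CPM, the others 140 to 155) and Srsf5-2 (26.9 CPM, the others 15.8 to 16.6).

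Hnrnpab was low in air rat 39 of day 7 at 10 mg/m3 (8.39 CPM, the others 14.3 to 16.1) and high in dust rat 74 of day 7 at 30 mg/m3 (67.9 CPM, the others 0.443 to 20.3). Hnrnpc was high in air rat 20 of day 1 at 10 mg/m3 (35.3 CPM, the others 15.5 to 21.2). Rbm38 was high in dust rat 57 of day 1 (151.0 CPM, the others 17 to 58.8) and dust rat 89 of day 27 (154.8 CPM, the others 19.1 to 52.1) at 30 mg/m3. Rbm39 was high in air rat 36 of day 7 at 10 mg/m3 (52.9 CPM, the others 11.9 to 17.7) and in air rat 55 of day 1 at 30 mg/m3 (34.9 CPM, the others 7.38 to 13.9).

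At 30 mg/m3, Srsf5 was high in air rat 83 of day 27 (322 CPM, the others 253 to 276) and Srsf5-2 in air rat 87 of that day (14.6 CPM, the others 12.0 to 12.9). Srsf7 was low in dust rat 16 of day 27 at 10 mg/m3 (84.9 CPM, the others 99.98 to 103).

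In the fit without a covariate, the dust effect differed between the doses for 7 members, by the test of the difference itself. On the log2 scale these were Srsf5-2 (0.54), Srsf5 (0.42), Hnrnph1 (0.37), Rbm5 (0.31), Srsf6 (0.29), Rbmx (0.28) and Srsf1 (0.28), all higher at 30 mg/m3. Dose and study cannot be told apart. None of the 7 passed with mitochondrial ribosomal RNA share (edgeR adjusted p = 0.207 to 0.438) or clock phase (edgeR adjusted p = 0.0799 to 0.119) as a covariate. Leaving out 1 rat at a time gave 0 to 17 members called, and 4 to 1046 of all genes.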

How the results depend on the processing

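In the mean dust effect at 30 mg/m3, 1 member passed with mitochondrial ribosomal RNA share as a covariate, 14 with genes detected and 17 without air rats 51 and 53, and between 7 and 13 under the other alternatives, against 9 in the test as designed. Over all genes these fits called 1, 459 and 1014, and between 81 and 420 under the other alternatives, against 187. For the difference between doses the counts were 13 in DESeq2, 3 with no filter, 0 with mitochondrial ribosomal RNA share, 0 with clock phase, 17 with genes detected and 20 without air rats 51 and 53, against 7. Over all genes DESeq2 called 823, no filter 59, genes detected 1092 and the fit without air rats 51 and 53 called 1421, against 338. At day 1, DESeq2 called 4 members at 10 mg/m3 and 2 at 30 mg/m3, genes detected gave 2 at 30 mg/m3, and leaving out air rats 51 and 53 gave 13, against 0. In the same order these fits called 474, 40, 85 and 877 of all genes, against 20 at 10 mg/m3 and 0 at 30 mg/m3. For air between days 1 and 27 the counts were 15 in DESeq2, 5 with no filter, 0 with mitochondrial ribosomal RNA share and 5 with clock phase at 10 mg/m3, against 9, and 4 with no filter, 0 with mitochondrial ribosomal RNA share and 8 without air rats 51 and 53 at 30 mg/m3, against 12. Over all genes they were 945, 268, 5 and 215 at 10 mg/m3, against 466. At 30 mg/m3 they were 1357, 185 and 1052 over all genes, against 2007. For air between days 1 and 7 the counts of members were 14 with no filter at 10 mg/m3, against 24, and 1 with mitochondrial ribosomal RNA share and 2 without air rats 51 and 53 at 30 mg/m3, against 0. Over all genes these were 627 at 10 mg/m3, against 925, and 38 and 168 at 30 mg/m3, against 18. The cause was not tested. With mitochondrial ribosomal RNA share as a covariate, Srsf4 (-0.0765), Hnrnpa2b1 (-0.0103) and Hnrnpul2 (-0.0377) changed sign between days 1 and 27 of air at 10 mg/m3. The comparison of air between studies gave 38 to 40 members under all alternatives, among 4533 to 5046 genes in all.

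Leaving out 1 rat at a time gave 0 to 14 members at day 1 of 10 mg/m3, 4 to 14 in the mean effect at 30 mg/m3, 0 to 17 in the difference between doses, 0 to 20 and 13 to 30 in air at 10 mg/m3 (day 27 and day 7 against day 1), 0 to 6 at day 1 of 30 mg/m3, 3 to 15 and 0 to 1 in air at 30 mg/m3, 35 to 41 for air between studies, and 0 in the other comparisons. The counts over all genes moved in the same fits. At day 1 they ran from 1 to 1147 at 10 mg/m3 and from 0 to 220 at 30 mg/m3. They ran from 22 to 610 in the mean effect at 30 mg/m3 and from 4 to 1046 in the difference. In air at 10 mg/m3 they ran from 2 to 1467 (day 27) and 296 to 2099 (day 7). In air at 30 mg/m3 they ran from 1068 to 2778 and 8 to 46. The 1 call in air at 30 mg/m3 (day 7 against day 1) came without rat 52. For the difference, 0 members passed without rats 6, 16, 48 or 79, 2 without rats 5 or 15, 3 without rats 17, 34, 61, 62, 65 or 85, 4 without rats 55 or 96, 11 without rat 1, 12 without rat 3, 14 without rats 21 or 69 and 17 without rat 53. Hnrnpdl passed in the mean effect at 30 mg/m3 in all 36 fits that left out 1 rat and in 9 of 9 other alternatives; Pspc1, Rbm26 and Rbm3 passed in 36 and in 8, and Srsf7 in 11 and 5. No paired analysis was possible because the rat numbers in the titles are not shared between groups.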

Other observations

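Rbm38 in the 30 mg/m3 study, listed by rising rat number within a group, was 24.6, 49.3, 42.8, 20.4, 114.5 and 79.6 CPM in air at day 1 and 19.5, 23.6, 43.7, 18.2, 133.9 and 89.9 CPM in air at day 27. In dust it was 151.0, 21.4, 17.01, 19.8, 58.8 and 20.1 CPM at day 1 and 154.8, 24.2, 19.1, 19.7, 52.1 and 23.2 CPM at day 27. The highest rat had the second highest number of its group in both air groups and the lowest number in both dust groups. Alas2, listed the same way, was 370, 1176, 1224, 496, 3559 and 2530 CPM in air at day 1 and 230, 567, 1373, 279, 4269 and 3024 CPM in air at day 27. In dust it was 7549, 340, 88.5, 414, 2695 and 413 CPM at day 1 and 7084, 249, 69.9, 445, 1840 and 555 CPM at day 27. The labels tie no rat of day 1 to one of day 27. The tests took the libraries of both days as independent, and whether they are was not tested.

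In every comparison of dust with air the dust rats carried higher numbers in their titles than the air rats of the same day and study, so the order of handling, if the numbers give it, and the exposure cannot be told apart.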
